A study of Homo sapiens with 6 samples.

Results

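Genes of activin, TGF-beta and BMP signalling were examined in the human line PC9ER, derived from a non-small cell lung cancer, which depends on the receptor tyrosine kinase EGFR and resists its inhibitor gefitinib. The set holds 10 genes chosen by symbol, and all 10 were found among the 15376 rows of the deposited table of coding genes: the ligand genes INHBA, TGFB1 and TGFB2, the antagonist genes FST and NOG, the inhibitory SMAD genes SMAD6 and SMAD7, and the target genes ID1, ID2 and ID3. RNA sequencing libraries were made from cells exposed to 1 µM gefitinib in the final 6 h (n = 3) and from control cells given the vehicle DMSO (n = 3). Per the labels, both groups were grown in medium with 10% fetal calf serum, and a single protocol describes 72 h of DMSO in place of a Notch inhibitor followed by overnight serum withdrawal. The labels do not say whether control cells were without serum during the last hours, so gefitinib and a difference in serum cannot be told apart in any result given here. Nor do they state separate cultures for the replicates, so p-values measure the spread between these libraries, which may be technical. PC9ER is a single cell line, and each level is an average over all cells of a culture, so fewer cells that express a gene and less RNA per cell cannot be told apart.

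Ligands of the TGF-beta family are secreted dimers that join type II and type I receptor kinases at the cell surface. Activins and TGF-betas act mainly through SMAD2 and SMAD3, and BMPs mainly through SMAD1, SMAD5 and SMAD9; both branches use SMAD4 to enter the nucleus and act on genes. The secreted proteins follistatin and noggin trap activins and BMPs outside the cell, SMAD6 and SMAD7 block the receptors from inside, and ID proteins, classic products of BMP target genes, hold basic helix-loop-helix transcription factors away from DNA. In epithelial cells the TGF-beta branch is known for growth arrest and for epithelial-mesenchymal transition.

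Sequences upstream of the members were taken from RefSeq on GRCh38.p14, as windows from 250 bases before to 50 bases after each annotated start. Windows were found for 9 of the 10 members, with 3 windows for SMAD7. None was found for NOG, so its upstream sequence was not searched. Those of INHBA and TGFB2 are printed because these ligand genes fell together, and those of the pairs SMAD6 and SMAD7 and ID1 and ID3 because the genes of each pair moved in opposite directions. For SMAD7 the window farthest upstream is printed. The RefSeq starts can differ from the GENCODE gene positions given below. The TGFB2 window ends at 218345385, before the GENCODE start at 218346235. The INHBA window ends at 41703340, inside the GENCODE gene, which ends at 41705834. All windows are given from 5′ to 3′ on the strand of the gene, with matches to the searched motifs in capitals.
INHBA, chr7:41703041-41703340, minus strand: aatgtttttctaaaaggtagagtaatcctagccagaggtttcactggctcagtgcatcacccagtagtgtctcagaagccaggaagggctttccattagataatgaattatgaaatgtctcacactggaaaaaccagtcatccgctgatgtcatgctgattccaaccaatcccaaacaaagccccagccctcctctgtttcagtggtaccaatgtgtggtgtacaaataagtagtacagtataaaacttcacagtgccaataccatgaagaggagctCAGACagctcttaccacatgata
TGFB2, chr1:218345086-218345385, plus strand: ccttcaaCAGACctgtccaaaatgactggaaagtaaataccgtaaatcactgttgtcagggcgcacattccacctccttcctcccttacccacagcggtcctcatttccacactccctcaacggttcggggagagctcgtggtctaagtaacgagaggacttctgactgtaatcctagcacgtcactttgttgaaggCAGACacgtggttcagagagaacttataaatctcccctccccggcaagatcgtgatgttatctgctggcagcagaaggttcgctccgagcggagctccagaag
SMAD6, chr15:66701986-66702285, plus strand: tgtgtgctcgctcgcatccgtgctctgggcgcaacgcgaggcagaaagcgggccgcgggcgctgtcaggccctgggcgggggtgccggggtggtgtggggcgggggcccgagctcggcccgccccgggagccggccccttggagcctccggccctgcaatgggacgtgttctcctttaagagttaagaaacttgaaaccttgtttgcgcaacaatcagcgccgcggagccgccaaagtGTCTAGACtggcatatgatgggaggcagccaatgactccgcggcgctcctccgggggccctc
SMAD7, chr18:48950916-48951215, minus strand: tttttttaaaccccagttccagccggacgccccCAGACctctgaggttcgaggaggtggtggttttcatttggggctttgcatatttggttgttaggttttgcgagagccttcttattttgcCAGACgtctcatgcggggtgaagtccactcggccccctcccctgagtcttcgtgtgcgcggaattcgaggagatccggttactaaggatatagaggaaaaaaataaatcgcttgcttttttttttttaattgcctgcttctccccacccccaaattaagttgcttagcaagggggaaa
ID1, chr20:31605039-31605338, plus strand: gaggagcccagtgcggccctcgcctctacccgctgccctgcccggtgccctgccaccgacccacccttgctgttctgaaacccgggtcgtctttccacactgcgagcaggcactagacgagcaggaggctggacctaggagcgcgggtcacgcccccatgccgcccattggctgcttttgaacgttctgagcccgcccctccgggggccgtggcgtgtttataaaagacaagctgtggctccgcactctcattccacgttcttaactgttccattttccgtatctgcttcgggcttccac
ID3, chr1:23559452-23559751, minus strand: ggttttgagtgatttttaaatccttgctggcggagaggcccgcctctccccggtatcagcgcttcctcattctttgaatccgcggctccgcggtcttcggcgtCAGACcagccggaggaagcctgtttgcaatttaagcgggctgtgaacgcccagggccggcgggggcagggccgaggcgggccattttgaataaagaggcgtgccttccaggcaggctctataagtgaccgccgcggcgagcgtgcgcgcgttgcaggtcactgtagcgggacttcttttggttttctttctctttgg
The motifs searched on both strands were the SMAD box CAGAC, the SMAD palindrome GTCTAGAC, the BMP-type SMAD motif GGCGCC, the AP-1 motif TGANTCA, the cyclic AMP element TGACGTCA and the EGR motif GCGGGGGCG. CAGAC does not occur within GTCTAGAC on either strand. A window of SMAD6 held the palindrome, which occurs in 0.202% of 35116 RefSeq windows of the same length. CAGAC was found for 4 of the 9 members with a window, INHBA, TGFB2, SMAD7 and ID3, and in 45.3% of all windows. Members were counted as genes, with SMAD7 searched in all 3 of its windows, while the percentages count windows. A further SMAD7 match, as GTCTG, lies in a window that is not printed. The AP-1 letters were found for FST alone among the members with a window, as TGATTCA, and in 7.71% of all windows. The EGR letters were found for TGFB1 alone among the members with a window, and in 5.07% of all windows. No member window held GGCGCC or TGACGTCA, which occur in 19.2% and 1.85% of all windows. These matches describe letters in a window and not binding.

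Libraries held from 13674237 to 38581498 reads in coding genes with gefitinib and from 16211544 to 25639050 in control. All 8 epithelial marker genes had reads, with summed normalized read counts from 72373 to 75629 in gefitinib libraries and from 86972 to 125415 in control libraries. Fibroblast markers summed to between 51.6 and 76.4 with gefitinib and between 36.7 and 76.3 in control, with 6 of 9 listed genes detected. Blood markers summed to between 34.4 and 40.7 with gefitinib and between 23.4 and 31.0 in control, with 7 of 8 detected. Of 6 lung lineage markers 4 had reads, and their sums were from 30.4 to 38.9 with gefitinib and from 26.8 to 35.7 in control. The control libraries were spread in base composition, with control replicate 1 farthest out. In it the fifth of genes richest in G and C had a median log2 deviation of -0.43 from the control mean. That deviation was 0.14 in control replicate 2 and 0.29 in control replicate 3, from a mean that includes replicate 1. The gefitinib libraries lay between -0.05 and 0.03 from their own mean. The part of these marker and base composition differences in the results was not tested, beyond the values given without control replicate 1 or with the GC trend removed.

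Gefitinib-treated cells had far less mRNA of 4 members that encode secreted proteins. INHBA, which encodes the subunit of activin A, was 38.3-fold lower, NOG, which encodes the BMP antagonist noggin, 21.1-fold lower, FST, which encodes the activin antagonist follistatin, 10.7-fold lower and TGFB2, which encodes the ligand TGF-beta 2, 9.37-fold lower. ID3 fell and ID1 rose, and SMAD6 fell while SMAD7 rose. TGFB1 and ID2 did not pass the test. In all, 2 of the 10 members were called higher and 6 lower at a limma adjusted p under 0.05, with adjustment over all genes, and the libraries of the groups did not overlap for these 8. Over all 15229 tested genes 51.1% were called, 28.3% higher and 22.8% lower, and the groups did not overlap for 58.0%. On the recovered reads edgeR called the same 8 members in the same directions, where it called 61.3% of 12167 genes. The median log2 difference of the members was -1.54, beside 0.10 for all tested genes. The members were chosen with earlier results of these data known, so their counts and median describe the set and are not a test.

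**Figure D1:**
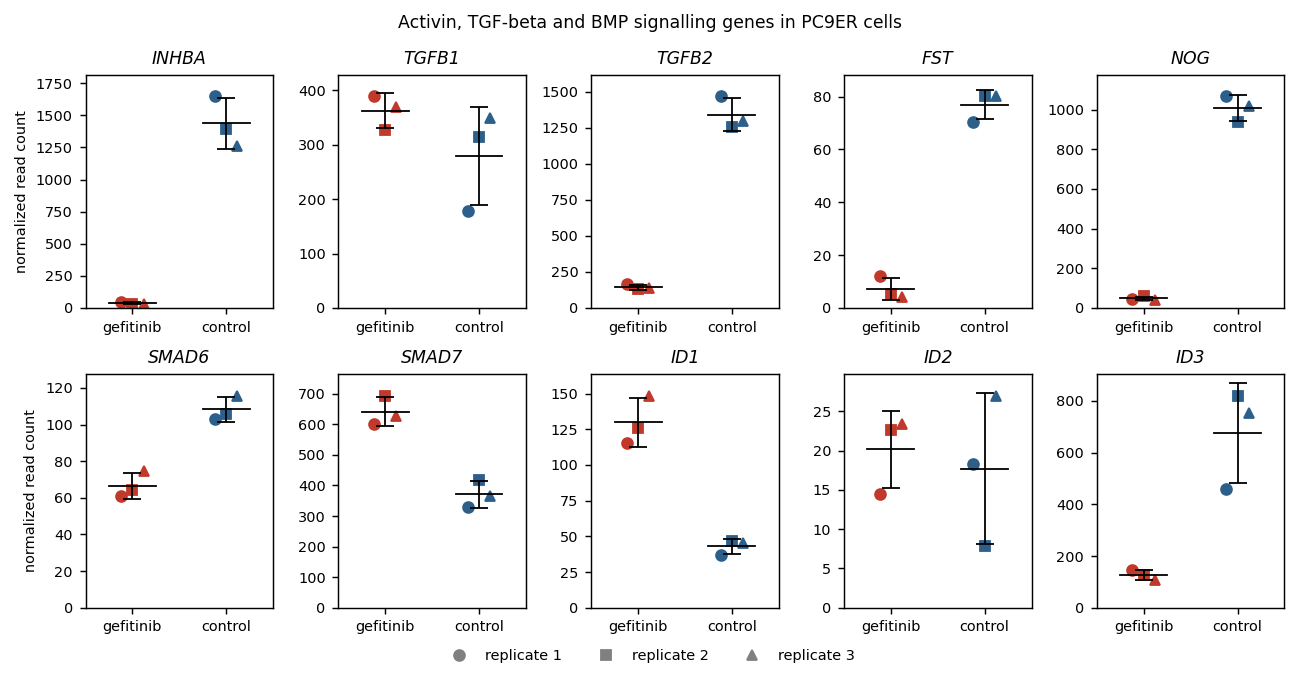
Normalized read count (y axis) of each of the 10 genes in 3 gefitinib and 3 control libraries, with horizontal lines for the mean and bars for the SD. INHBA, TGFB2, FST, NOG, SMAD6 and ID3 lie lower in every gefitinib library than in any control library, SMAD7 and ID1 lie higher, and TGFB1 and ID2 overlap.

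**Figure D2:**
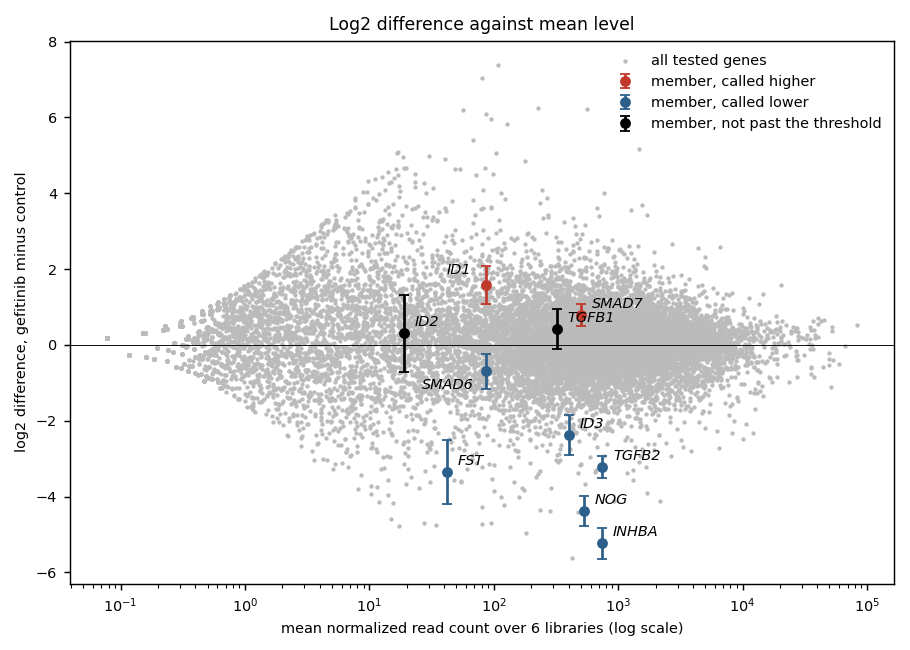
Log2 difference, gefitinib minus control (y axis), against the mean normalized read count over the 6 libraries (x axis, log scale) for all tested genes in grey and the 10 members in colour, with 95% intervals. INHBA at -5.23 and NOG at -4.39 lie at the lower edge of the cloud, and ID1 at 1.57 is the highest member.

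INHBA (chromosome 7, 41667168 to 41705834, GRCh38, minus strand) encodes the inhibin beta A chain, which pairs with itself to form activin A. It had normalized read counts of 46.3, 32.5 and 33.8 in gefitinib libraries 1, 2 and 3, against 1653, 1396 and 1265 in control libraries 1, 2 and 3. Every gefitinib library was far below every control library, and the gap was many times the spread within either group. The means were 37.5 ± 7.62 with gefitinib and 1438 ± 197 in control (SD, n = 3 each), a log2 difference of -5.23 ± 0.18 (SE; 95% interval -5.64 to -4.82; limma adjusted p = 3.96e-07). Among 15229 tested genes INHBA had rank 2 from the bottom. Its value rested on 143 reads in the gefitinib libraries together and 4904 in the control libraries.

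TGFB2 (chromosome 1, 218346235 to 218444619, plus strand) encodes TGF-beta 2. It had normalized read counts of 164, 129 and 136 in gefitinib libraries, against 1472, 1255 and 1296 in control libraries. The groups were well apart and each was tight. The log2 difference was -3.22 ± 0.13 (SE; 95% interval -3.52 to -2.92; limma adjusted p = 6.30e-07), rank 63 from the bottom. An annotated noncoding transcript, TGFB2-OT1, shares 26.6% of the TGFB2 exon bases on the same strand, and the sources used here do not say how reads there were assigned.

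TGFB1 (chromosome 19, 41301587 to 41353911, minus strand), which encodes TGF-beta 1, the best-studied ligand of the family, had 390, 327 and 369 in gefitinib libraries and 178, 313 and 348 in control libraries. Control replicate 1 was low, control replicate 2 lay just under the gefitinib range and control replicate 3 within it. The log2 difference of 0.42 ± 0.24 (SE) did not pass the test (95% interval -0.11 to 0.96; limma adjusted p = 0.165). With the GC trend of each library removed, an alternative added after the data were seen, the difference was 0.40 ± 0.12 and was called (limma adjusted p = 0.0154); without control replicate 1 it was 0.13 (limma adjusted p = 0.422), and over all alternatives the adjusted p ran from 0.0154 to 0.422. The GC trend was fitted to the deviation of each library from the mean of all 6 libraries. Its removal therefore also takes out any GC-linked difference between the groups. The longest TGFB1 transcript is 63.5% G and C, the highest of the members, and 6.64% of the TGFB1 exon bases lie under exons of HNRNPUL1 on the opposite strand.

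Among the other activin and TGF-beta type ligand genes, INHBB, which encodes the inhibin beta B chain of activin B, fell to 1317, 1065 and 872 in gefitinib libraries, against 2101, 2403 and 2741 in control libraries (log2 difference -1.17 ± 0.15 SE, limma adjusted p = 0.000213). GDF11, a close relative of myostatin, fell by 1.35 on the log2 scale, with 112 ± 17.6 normalized reads with gefitinib and 285 ± 20.5 in control (SD, n = 3 each). GDF15, a distant family member that signals through a receptor in the brain, rose to 142 ± 27.3 with gefitinib, against 62.5 ± 14.5 in control. Of the 11 ligand genes of this type tested, 1 rose, 4 fell and 6 did not pass, beside 51.1% of all tested genes called. The list's median log2 difference was -0.32. INHBB and GDF11 were named after their values were seen.

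BMP ligand genes were low in these cells and did not move one way. BMP6 rose to 155 ± 13.6 normalized reads with gefitinib, against 78.0 ± 12.6 in control, and BMP8B rose to 89.2 ± 21.4, against 41.4 ± 10.4 (SD, n = 3 each). BMP4 fell to 109 ± 26.1 with gefitinib, against 242 ± 41.5 in control. BMP3 had 46.1 ± 3.69 with gefitinib and 72.6 ± 11.1 in control, and its call (limma adjusted p = 0.0449) was lost without control replicate 1 (0.0997), control replicate 2 (0.0998), gefitinib replicate 2 (0.129) or gefitinib replicate 3 (0.109) and with the replicate number as a block (0.0527), over a range of alternatives up to 0.129. Of 9 BMP ligand genes tested, 2 rose, 2 fell and 5 did not pass, with a median of 0.18. Among all tested genes 51.1% were called.

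Both antagonist genes in the set fell. NOG (chromosome 17, 56593699 to 56595590, plus strand) had normalized read counts of 46.3, 57.8 and 38.9 in gefitinib libraries, against 1069, 937 and 1016 in control libraries. No gefitinib library came near a control library. The log2 difference was -4.39 ± 0.18 (SE; 95% interval -4.78 to -3.99; limma adjusted p = 6.23e-07), rank 11 from the bottom. FST (chromosome 5, 53480409 to 53487134, plus strand) was the scarcer antagonist, with 11.9, 5.42 and 4.22 in gefitinib libraries, against 70.5, 80.3 and 80.1 in control libraries. The groups did not overlap, and the gefitinib values rested on 24 reads in all. The FST log2 difference was -3.36 ± 0.37 (SE; 95% interval -4.21 to -2.52; limma adjusted p = 7.66e-05), which the added pseudocount of 1 understates at such low values.

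Other antagonist genes went the other way. TWSG1, which encodes a BMP-binding protein that works with chordin, rose to 4133 ± 44.0 normalized reads with gefitinib, against 2593 ± 330 in control (SD, n = 3 each; named after its values were seen). BAMBI, which encodes a decoy receptor without a kinase, rose to 139, 134 and 172 in gefitinib libraries, against 62.1, 83.7 and 77.2 in control libraries (log2 difference 0.99 ± 0.21 SE, limma adjusted p = 0.00341). FSTL3, a follistatin relative that also binds activin, had 346 ± 37.3 with gefitinib and 216 ± 55.5 in control (limma adjusted p = 0.0144). That call was lost without gefitinib replicate 1 (0.0521) or gefitinib replicate 2 (0.0655), the highest adjusted p over all alternatives. Of 11 antagonist genes tested, 3 rose, 2 fell and 6 did not pass, beside 51.1% of all tested genes called, and the median was 0.18.

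Receptor genes moved in both directions. Both TGF-beta receptor kinase genes fell: TGFBR2, the type II receptor, had 754, 606 and 635 normalized reads in gefitinib libraries, against 1859, 1898 and 1699 in control libraries (log2 difference -1.45 ± 0.11 SE, limma adjusted p = 7.32e-06). TGFBR1, the type I receptor, had 3419, 2583 and 2200 in gefitinib libraries, against 7755, 6502 and 6386 in control libraries (-1.35 ± 0.15, limma adjusted p = 8.22e-05). In neither did the groups overlap. The type II activin receptor genes moved apart, with ACVR2A higher at 496, 468 and 486 in gefitinib libraries, against 214, 182 and 140 in control libraries (1.45 ± 0.17). ACVR2B was lower, at 463, 474 and 417 in gefitinib libraries, against 618, 596 and 667 in control libraries (-0.47 ± 0.11). Per kb of exon, the ratio of ACVR2A to ACVR2B was 2.50 ± 0.206 with gefitinib and 0.667 ± 0.162 in control (SD, n = 3 each); this pair was chosen after its values were seen and the ratio was not tested. BMPR2, the type II BMP receptor gene, rose to 1814 ± 17.6 with gefitinib, against 1128 ± 13.2 in control, and the type I activin receptor gene ACVR1B rose to 1204 ± 22.7, against 869 ± 72.1.

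The scarce receptor genes that rose did so from very few reads. ACVR1C, which encodes the type I receptor ALK7, had 51, 100 and 164 reads in gefitinib libraries, against 11, 1 and 0 in control libraries (log2 difference 4.89 ± 0.68 SE, limma adjusted p = 0.000288). Of the 12 control reads, 11 came from control replicate 1, so the control level varied between libraries from none to low. BMPR1B, a type I BMP receptor gene, had 9, 15 and 27 reads with gefitinib, against 3, 1 and 0 in control (2.87 ± 0.46). Both were called in every alternative that tested them, but the sizes depended on the settings. The ACVR1C difference ran from 3.50 with a pseudocount of 5 to 5.76 without control replicate 1 (4.19 without control replicate 3), and that of BMPR1B from 1.56 with a pseudocount of 5 to 3.39 with DESeq2. ACVR1 had 425 ± 39.4 normalized reads with gefitinib and 342 ± 18.1 in control and did not pass (limma adjusted p = 0.0599; 0.0322 without control replicate 1). BMPR1A had 182 ± 14.2 with gefitinib and 237 ± 12.6 in control (limma adjusted p = 0.0520), and 9 alternatives called it lower, including edgeR (0.0258), DESeq2 (0.0229) and TMM factors (0.0361). The co-receptor genes TGFBR3, at 585 ± 58.3 and 651 ± 4.82, and ENG, at 258 ± 12.8 and 249 ± 87.0 in gefitinib and control libraries, did not pass; TGFBR3 was called lower with the GC trend removed together with the replicate block (limma adjusted p = 0.0415). AMHR2 had 3 reads with gefitinib and 5 in control. Of 13 receptor and co-receptor genes tested, 5 rose, 3 fell and 5 did not pass, with a median of 0.12. Among all tested genes 51.1% were called.

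The inhibitory SMAD genes moved in opposite directions. SMAD7 (chromosome 18, 48919853 to 48952052, minus strand), which blocks TGF-beta, activin and BMP receptors, had normalized read counts of 602, 694 and 627 in gefitinib libraries, against 329, 417 and 366 in control libraries. All gefitinib values were above all control values. The log2 difference was 0.79 ± 0.13 (SE; 95% interval 0.51 to 1.08; limma adjusted p = 0.000651). SMAD6 (chromosome 15, 66702228 to 66782848, plus strand), which acts mainly on BMP signals, had 60.8, 64.2 and 74.5 in gefitinib libraries, against 103, 106 and 116 in control libraries. The groups were apart but close to each other. The log2 difference was -0.70 ± 0.20 (SE; 95% interval -1.15 to -0.25; limma adjusted p = 0.0161), and the call was lost without gefitinib replicate 2 (0.0592) or control replicate 3 (0.0513), in a range from 0.00510 to 0.0592 over all alternatives. Per kb of exon, SMAD7 stood above SMAD6 by a ratio of 16.8, 18.4 and 14.3 in gefitinib libraries, against 5.44, 6.70 and 5.37 in control libraries.

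Among the SMADs that carry the signal, SMAD2 and SMAD3 of the activin and TGF-beta branch both fell. SMAD3 had 1811, 1894 and 1934 normalized reads in gefitinib libraries, against 3253, 3429 and 3350 in control libraries (log2 difference -0.83 ± 0.07 SE, limma adjusted p = 2.03e-05), and SMAD2 had 2329 ± 212 with gefitinib and 3307 ± 363 in control (SD, n = 3 each). In the BMP branch SMAD5 fell to 1222 ± 173, against 2276 ± 218 in control, SMAD1 had 202 ± 14.9 and 191 ± 21.1 with no call (limma adjusted p = 0.691), and the scarce SMAD9 rose to 36 reads in the gefitinib libraries, against 5 in the control libraries. SMAD4, shared by both branches, rose to 2537, 2170 and 2021, against 1566, 1428 and 1391 in control (0.61 ± 0.10).

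Genes of nuclear corepressors that restrain SMADs moved in both directions, and those of the ubiquitin ligases were lower. TGIF2, a homeobox corepressor gene, had 64.8, 69.6 and 72.2 normalized reads in gefitinib libraries, against 554, 576 and 641 in control libraries (log2 difference -3.08 ± 0.15 SE, limma adjusted p = 1.15e-06), and its relative TGIF1 fell by 1.82 on the log2 scale. SKI, another SMAD corepressor gene, rose to 2493, 2774 and 3171 in gefitinib libraries, against 735, 851 and 874 in control libraries (1.77 ± 0.11). Its relative SKIL had 1932 ± 205 with gefitinib and 2163 ± 174 in control and did not pass (limma adjusted p = 0.208; 0.000920 with the GC trend removed). The ubiquitin ligase genes SMURF1 and SMURF2, which target SMADs and receptors, fell by 0.55 and 0.97, and the receptor adaptor gene ZFYVE9 fell by 0.66; these and SKIL were named after their values were seen. Of the 10 genes in this list, with SMAD6, SMAD7, PMEPA1 and ZFYVE9 included, 2 rose, 7 fell and 1 did not pass, with a median of -0.68. Among all tested genes 28.3% were called higher and 22.8% lower.

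The ID genes, textbook targets of BMP signalling, did not move together. ID3 (chromosome 1, 23557918 to 23559794, minus strand) had normalized read counts of 147, 128 and 105 in gefitinib libraries, against 458, 821 and 752 in control libraries. The groups were apart, although control replicate 1 was well below the other control libraries. The log2 difference was -2.37 ± 0.23 (SE; 95% interval -2.89 to -1.86; limma adjusted p = 3.47e-05), and -2.63 without control replicate 1. ID1 (chromosome 20, 31605283 to 31606515, plus strand) had 115, 126 and 149 in gefitinib libraries, against 36.7, 46.9 and 45.4 in control libraries. Every gefitinib library was above every control library. The log2 difference was 1.57 ± 0.22 (SE; 95% interval 1.07 to 2.07; limma adjusted p = 0.000314).

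ID2 (chromosome 2, 8678845 to 8684453, plus strand) was scarce, with 14.5, 22.6 and 23.4 in gefitinib libraries, against 18.3, 7.81 and 27.0 in control libraries. The groups overlapped, and control replicate 2 held 7 reads. The log2 difference of 0.30 ± 0.45 (SE) did not pass (limma adjusted p = 0.605), and its 95% interval from -0.71 to 1.32 leaves changes of either sign possible; without control replicate 2 it was -0.16. ID4 had 9 reads with gefitinib and 5 in control. Of the genes for basic helix-loop-helix proteins that ID proteins bind, TCF4 fell to 484 ± 19.2, against 754 ± 63.7 in control (SD, n = 3 each), while TCF3 had 1114 ± 62.2 and 1139 ± 232 (limma adjusted p = 0.946) and TCF12 had 441 ± 42.9 and 527 ± 27.6 (0.0946; called lower with the GC trend removed, at 0.00820) in gefitinib and control libraries. TCF3 and TCF12 were named after their values were seen. HES1, also on that list, had 666 ± 55.9 with gefitinib and 524 ± 13.8 in control, a call (limma adjusted p = 0.0224) lost in 8 alternatives, among them edgeR (0.0579) and TMM factors (0.0645) and the fits without gefitinib replicate 2 (0.122), gefitinib replicate 3 (0.0626) or control replicate 2 (0.0874).

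Levels per kb of exon, which allow genes of different length to be set side by side, show how the make-up of these groups differed. With gefitinib the order of mean levels among the members was SMAD7 at 127 normalized reads per kb, TGFB1 at 112, ID1 at 105, ID3 at 70.6, TGFB2 at 27.8, NOG at 25.2, ID2 at 9.16, SMAD6 at 7.77, INHBA at 4.52 and FST at 2.42. In control cells the order was NOG at 533, ID3 at 377, TGFB2 at 260, INHBA at 173, TGFB1 at 86.4, SMAD7 at 73.7, ID1 at 34.8, FST at 25.9, SMAD6 at 12.6 and ID2 at 8.04. The exon length of INHBA includes all annotated transcripts, so its level per kb depends on which of them is used.

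TGFB1 was the main transcript of the ligands in the set with gefitinib and a minor one in control. Its share of the summed level of INHBA, TGFB1 and TGFB2 per kb was 76.3%, 77.7% and 78.9% in gefitinib libraries, against 10.2%, 19.0% and 21.0% in control libraries. INHBA made up 3.12% ± 0.371 with gefitinib and 33.2% ± 3.56 in control (SD, n = 3 each). The sum itself was 144 ± 13.9 normalized reads per kb with gefitinib and 520 ± 17.2 in control, so the share of TGFB1 was larger within a smaller sum. INHBB, a ligand gene outside the set, had 339 per kb with gefitinib and 754 in control, above that sum in both groups. Among the ID genes, ID1 made up 51.4%, 55.5% and 63.5% in gefitinib libraries, against 10.2%, 7.62% and 7.87% in control libraries, and ID3 made up 38.3% ± 7.05 with gefitinib and 89.4% ± 2.33 in control. The ratio of INHBA to FST per kb was 1.39, 2.15 and 2.86 in gefitinib libraries, against 8.38, 6.21 and 5.64 in control libraries. FST was not the main antagonist gene of activin here. FSTL3, outside the set, had 113 normalized reads per kb with gefitinib and 70.4 in control, above FST in both groups. These shares and ratios follow from the changes above and were not tested.

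**Figure D3:**
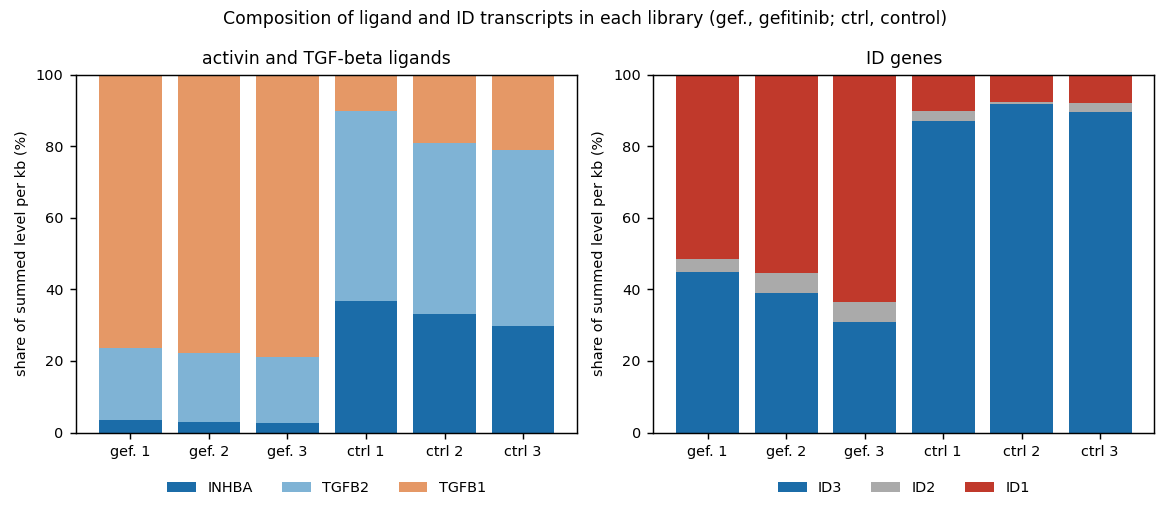
Share (y axis, percent) of each gene in the summed level per kb of INHBA, TGFB1 and TGFB2 (left) and of ID1, ID2 and ID3 (right) in each of the 6 libraries. TGFB1 takes between 76.3% and 78.9% of the ligand sum in gefitinib libraries, and ID3 takes between 87.0% and 91.7% of the ID sum in control libraries.

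Genes for the storage and release of TGF-beta moved in both directions. TGF-beta is secreted in a latent complex that latent TGF-beta binding proteins tie to the matrix and that thrombospondin 1 and the integrins alphavbeta6 and alphavbeta8 can activate. THBS1, the thrombospondin 1 gene, had 868, 661 and 575 normalized reads in gefitinib libraries, against 4189, 4257 and 4131 in control libraries (log2 difference -2.60 ± 0.14 SE, limma adjusted p = 1.71e-06). ITGB8, the gene of the integrin beta 8 chain, had 618, 559 and 556, against 2802, 2440 and 1980 in control (-2.04 ± 0.13). LTBP1 rose to 1358 ± 111 with gefitinib, against 855 ± 41.6 in control, and FURIN, a protease gene whose product cleaves the ligand precursors, had 1036 ± 81.2 with gefitinib and 591 ± 241 in control (limma adjusted p = 0.0182), a call lost without gefitinib replicate 1 (0.0564) or gefitinib replicate 3 (0.0613), the highest over all alternatives. Of 10 such genes, 2 rose, 4 fell and 4 did not pass, with a median of 0.12, beside 51.1% of all tested genes called.

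Target genes of either branch were split. Of 11 BMP target genes tested, 4 rose, 3 fell and 4 did not pass, with a median of 0.45; ID1, BAMBI, SMAD7 and SMAD9 rose, and ID3, SMAD6 and HEY1 fell. HEY1, also a Notch target, had 121 ± 12.2 normalized reads with gefitinib and 372 ± 48.6 in control (SD, n = 3 each). Of 17 TGF-beta target genes tested, 7 rose, 7 fell and 3 did not pass, with a median of -0.06. The share called among all tested genes was 51.1%. The rise of KLF10 (limma adjusted p = 0.0462) was lost with TMM factors (0.152), edgeR (0.138) and DESeq2 (0.210), among others. The fall of LTBP2 (0.0302), also counted among the storage and release genes, was lost without control replicate 2 (0.103), among others. The rise of CTGF rested on 29 reads with gefitinib and 1 in control. KLF10, LTBP2 and CTGF were named after their values were seen. PMEPA1, which encodes a feedback inhibitor of TGF-beta signalling, fell to 4902 ± 695, against 13534 ± 960 in control, with every gefitinib library below every control library (SD, n = 3 each; named after its values were seen). SNAI2, a transcription factor gene of epithelial-mesenchymal transition, rose to 132 ± 5.95, against 47.9 ± 12.6 in control, and CYR61, a matricellular gene, rose to 5412 ± 29.9, against 2331 ± 131. COL1A1 and FN1, matrix genes often raised by TGF-beta and named after their values were seen, did not pass (limma adjusted p = 0.794 and 0.677).

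Over all pathway lists together 93 genes were tested, of which 25 rose and 32 fell, beside 28.3% higher and 22.8% lower among all tested genes. The balance of that background depended on the scaling: 4312 genes were called higher and 3473 lower as deposited, 3933 and 3799 under TMM factors, and 3707 and 3752 by edgeR. Without the 10 members, 83 genes were tested, of which 23 rose and 26 fell, with a median log2 difference of -0.01.

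**Figure D4:**
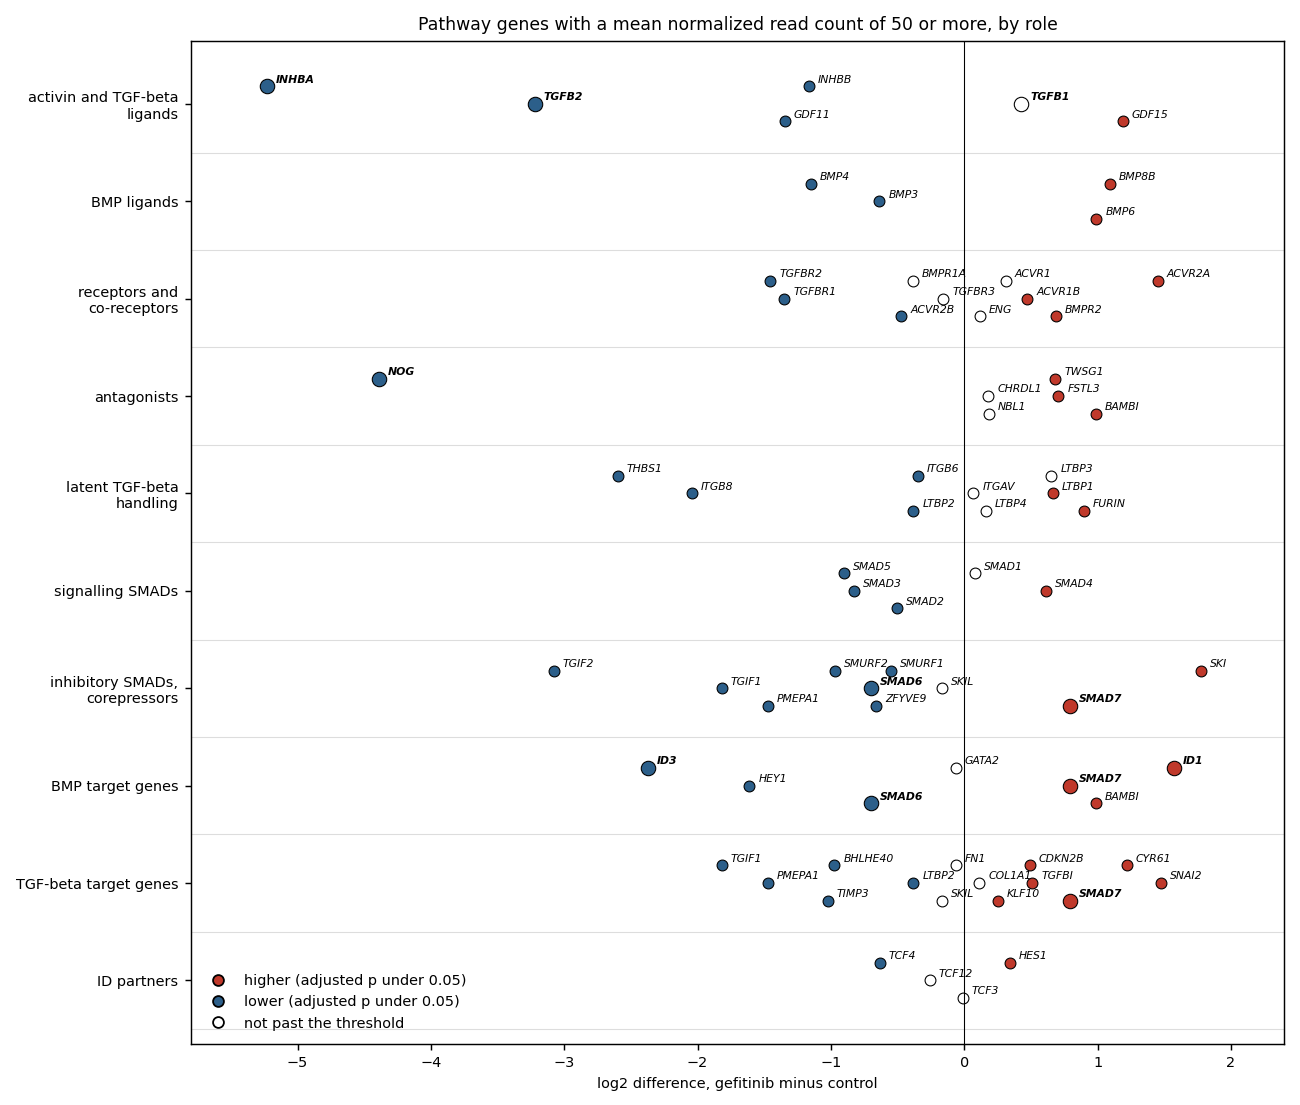
Log2 difference, gefitinib minus control (x axis), of the listed pathway genes that are reported here and have a mean normalized read count of 50 or more, in rows by role, with the members as larger points with bold names. Filled points passed the test, red higher and blue lower. INHBA and TGFB2 lie far left of the other ligand genes, and NOG lies at -4.39 while BAMBI lies at 0.99.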

How the data were processed

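Total RNA of 6 libraries was sequenced; per the submitters' processing notes, STAR and HTSeq were used on GRCh38, with versions, strand setting and annotation not given in the sources used here. The authors deposited a never-negative signal per coding gene, read counts scaled to a total of 18085800 per library. Within 0.01 read, 100% of values above 0 were whole multiples of the smallest value of their library, which gave the reads; their number limits precision. The 6 per-sample columns of another table match no label and were not used.

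Genes with a value above 0 in any library (15229 of 15376) were tested 2-sided by limma's trend method (limma 3.58.1, R 4.3.3) after adding 1 and taking log2, Benjamini-Hochberg adjusted over all genes, threshold 0.05. Differences are gefitinib minus control on that scale. Members and lists were chosen with earlier results of these data known. Named genes are the members, all receptor genes, signalling SMAD genes and ID4, and up to 2 rises and 2 falls per list with a mean of 50 or more (1 such fall is not reported here); others are marked. Alternatives included edgeR 4.0.16 and DESeq2 1.42.0 on the recovered reads. Gene positions and exon lengths are from GENCODE release 29. The test was checked on simulated data, with far fewer changed genes than here and no base composition differences between libraries. Libraries of a group differed by more than sampling noise.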

Additional observations from a re-analysis of the deposited data

How the results depend on the processing

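INHBA, TGFB2, FST, NOG, SMAD7, ID1 and ID3 kept their direction and their call in all 17 alternatives: a pseudocount of 0.5 or 5, genes with a mean of at least 10, TMM factors, DESeq2 size factors, edgeR with and without a count filter, DESeq2, a replicate block, removal of the GC trend (loess, span 0.3; added after the data were seen) with and without that block, and leaving out each library. TGFB1 was called higher with the GC trend removed, at 0.40 without and 0.40 with the replicate block (limma adjusted p = 0.0154 and 0.0254). SMAD6 kept its direction and lost its call without gefitinib replicate 2 or control replicate 3; with 1 library left out its log2 difference ran from -0.78 to -0.64. ID2, never called, ran from -0.16 to 0.67 with 1 library left out, and its sign turned without control replicate 2; the cause was not tested. Over all genes, the fits with 1 library left out called from 3467 to 4582 genes higher and from 2861 to 4001 lower, and edgeR called 61.3% of 12167 genes. The deviations of libraries with the same replicate number from their group means correlated at 0.127, 0.0444 and 0.0947 for numbers 1, 2 and 3. For libraries with different numbers the correlations ran from -0.128 to 0.0862. These small values cannot decide whether the numbers pair the libraries. With the replicate block 4438 genes were higher and 3552 lower, against 4312 and 3473 without it. Of the named genes the block removed the call of BMP3. Low read numbers limit FST, ID2 and the scarce receptor genes.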
